A study of Mus musculus with 4 samples.

Results

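The 10 genes for the enzymes that write, copy, erase or guard DNA methylation and the Polycomb mark were read in mouse regulatory T cells (Treg), Foxp3-expressing CD4 T cells that hold immune responses in check. The 10 genes were Dnmt1, Uhrf1, Hells, Dnmt3a, Dnmt3b, Tet1, Tet2, Tet3, Ezh1 and Ezh2. They were chosen by symbol, with earlier results of these data known, out of 22180 genes that had a probe set with a single gene symbol. A probe set is a group of array probes read together as 1 value. Each of the 10 genes had 1 such probe set, and all 10 lay above the median of all probe sets on all 4 arrays, so all were among the 12114 genes bright enough to be tested.

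The arrays came from mice of the strain labelled Foxp3Luci-DTR-4(B6 Albino), and both groups share that background. One group received an agonistic antibody against death receptor 3 (DR3), a receptor of the tumour necrosis factor receptor superfamily that costimulates T cells, and the other an isotype control antibody. Both antibodies were injected into the peritoneum, and CD4+Foxp3+GFP+ cells were sorted after 4 days, so the cells were recovered from treated animals and not stimulated in a dish. There were 2 arrays per group. The labels give no age or sex and do not say whether arrays of a group came from separate mice, so each p-value reflects array-to-array spread alone, which may be technical.

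Cytosine methylation at CpG sites is diluted at each round of DNA copying unless it is placed on the new strand. Uhrf1 recognises the half-methylated site behind the replication fork and recruits Dnmt1, which methylates the new strand, while the ATPase Hells opens nucleosomes so that both can reach the DNA. Dnmt3a and Dnmt3b set methylation at new sites, and the Tet dioxygenases oxidise methylcytosine as a first step to its removal. Ezh2 and its relative Ezh1 are the alternative catalytic subunits of Polycomb repressive complex 2 (PRC2), which adds a silencing methyl mark to histone H3. In Treg, loss of methylation at an enhancer of Foxp3 is known to keep Foxp3 expressed through cell division, and Ezh2 is known to be needed by activated Treg.

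After anti-DR3 2 genes that help the maintenance methyltransferase were higher: Hells rose 1.65-fold and Uhrf1 1.40-fold. Ezh2 was 1.36-fold higher and narrowly missed the threshold. Dnmt1 (1.14-fold), Dnmt3a (1.11-fold) and Ezh1 (1.05-fold) lay slightly above the control arrays, Tet2, Tet3 and Tet1 at 88.7%, 91.1% and 97.7% of them, and Dnmt3b at 81.8%. In limma (adjusted p under 0.05, Benjamini-Hochberg over all genes tested) 2 of 10 rose, 0 fell and 8 did not pass, where 5.96% of all genes tested passed, 4.49% higher and 1.47% lower. At an unadjusted p under 0.05 there were 4 of the 10, against 26.1% of all genes tested. The median log2 difference was 0.11 over the 10 genes and 0.01 over all genes tested.

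**Figure D1:**
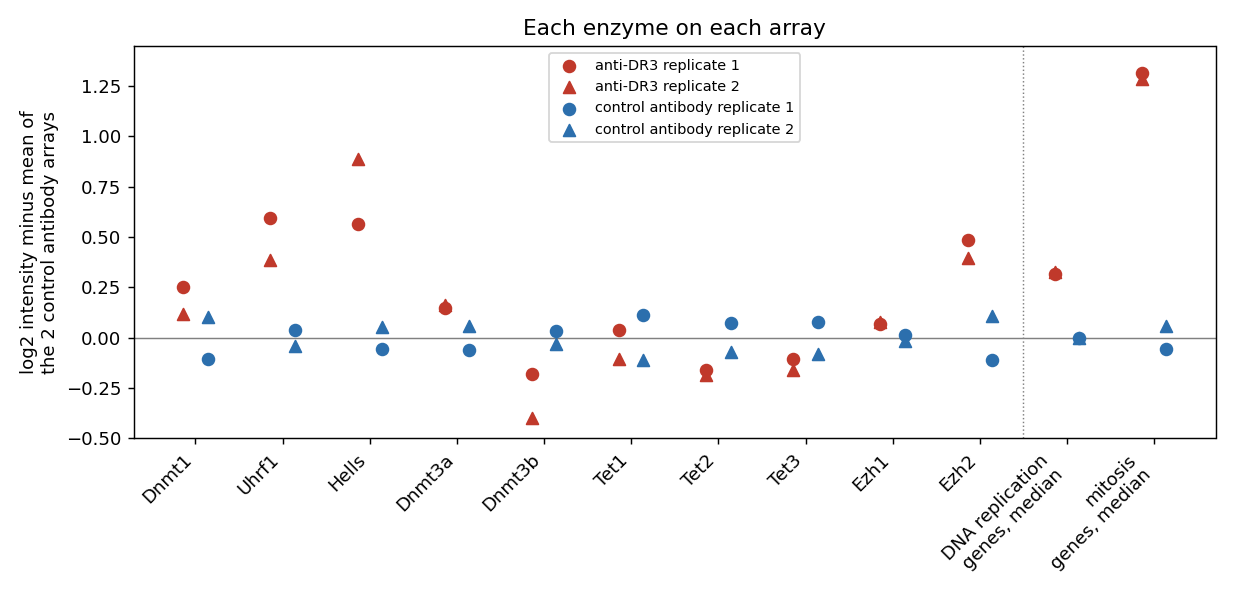
Log2 intensity of each gene on each of the 4 arrays (y axis), relative to the mean of its control antibody arrays, with the medians of the DNA replication and mitosis genes at the right. Red marks are anti-DR3 arrays, blue marks control antibody arrays, circles replicate 1 and triangles replicate 2; Hells, Uhrf1 and Ezh2 stand clear of their control arrays, and Tet1 overlaps them.

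Among the genes that copy methylation, Hells read 133 and 167 on the anti-DR3 arrays and 86.7 and 93.5 on the control arrays, in units of linear intensity. Both anti-DR3 arrays lay above both control arrays, and replicate 2 was the higher of the anti-DR3 pair. In log2 terms Hells rose by 0.73 ± 0.13 (SE, with n = 2 arrays in each group), with a 95% interval of 0.42 to 1.03 (adjusted p = 0.0337, limma). For Uhrf1 the intensities were 82.45 and 71.5 after anti-DR3 against 56.2 and 53.2 after control antibody, again without overlap, but here replicate 1 was the higher of the anti-DR3 pair. Uhrf1 rose by 0.49 ± 0.10, with an interval of 0.25 to 0.73 (adjusted p = 0.0479, limma). Its control values were dim, only 0.43 and 0.34 on the log2 scale above the medians of those arrays. Uhrf1 was not tested when more dim genes were left out.

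Dnmt1, the maintenance methyltransferase, read 317 and 289 after anti-DR3, compared with 248 and 286 under control antibody. Its groups were separated only by the small step between 286 and 289, and the step between the control arrays was larger. The difference was 0.19 ± 0.10 with an interval of -0.071 to 0.44 (adjusted p = 0.322, limma), so a rise of up to 1.36-fold lay within it. The calls of Hells and Uhrf1 were lost in limma whichever array was left out, which also removes 1 residual degree of freedom. Adjusted p ran from 0.0632 to 0.152 for Hells and from 0.116 to 0.194 for Uhrf1, over differences of 0.56 to 0.89 and 0.39 to 0.59. With no filter on dim genes both calls were lost as well (adjusted p = 0.124 and 0.162, limma), and Uhrf1 also missed the threshold with arrays centred on their median tested gene (0.0651), quantile-normalized (0.0510) or weighted (0.0519).

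The start regions of 4 of the 10 genes, Hells, Uhrf1, Ezh2 and Dnmt1, share a short motif, and every match is shown. These are also the 4 genes with the largest positive differences, of which only Hells and Uhrf1 passed. Whether the motif bears on the differences was not tested. The motif is the consensus of E2F, the transcription factor family that switches on genes for DNA copying, in its forms TTTCCCGC, TTTCGCGC, TTTGCCGC and TTTGGCGC, sought on both strands of RefSeq windows (GRCm38.p6) from 250 bases before to 50 after a start site. Stretches of 30 bases around each match follow, read along the gene's strand, with the motif in capitals.
Hells: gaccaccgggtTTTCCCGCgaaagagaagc
Uhrf1: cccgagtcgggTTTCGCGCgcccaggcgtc
Ezh2: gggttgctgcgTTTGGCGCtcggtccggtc
Dnmt1 distal: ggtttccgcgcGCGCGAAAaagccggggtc
Dnmt1 proximal: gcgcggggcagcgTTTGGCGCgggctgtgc
Parentheses give the coordinates of each printed stretch, not of the match alone, and the strand of the gene. The Hells match (chr19:38930917-38930946, plus strand) begins 62 bases before the start site. That of Uhrf1 (chr17:56304117-56304146, plus strand) begins 185 bases before the second of 2 listed starts. In Ezh2 (chr6:47595009-47595038, minus strand) it begins 3 bases past the start. Dnmt1 has 3 listed starts, and only the window of the third held matches. One begins 219 bases before the start, with the motif on the strand opposite to the gene's (chr9:20952824-20952853, gene on the minus strand). The other begins 33 bases after the start, on the gene's own strand (chr9:20952574-20952603, minus strand).

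All 10 genes had at least 1 window, 15 in all, and the windows of Dnmt3a, Dnmt3b, Tet1, Tet2, Tet3 and Ezh1 held none of these letters. Of all 32851 windows 2.26% held the motif, and of 27025 genes 2.60% held it in any window. It stood at 11 of 25 DNA replication genes with a window and at 2 of 18 mitosis genes. The cell cycle homology region of mitotic genes, sought as TTTGAA or TTCGAA, was in 13 of those 18 and in 21.7% of all genes (19.2% of all windows). Among the 10 it was in the first Dnmt1 window and in that of Dnmt3b. The CCAAT box was in 4 of the 10 genes and in 41.1% of all genes (37.4% of all windows). The motif windows of Hells, Uhrf1, Ezh2 and Dnmt1 held 34, 33, 31 and 33 CpG sites, against a median of 7 over all windows. Windows without the motif could be as rich, with 57 in Tet2, 46 and 47 in Dnmt3a and 30 in Dnmt3b, or poorer, with 17 in Tet1. A match describes letters and not binding, which was not measured here.

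**Figure D2:**
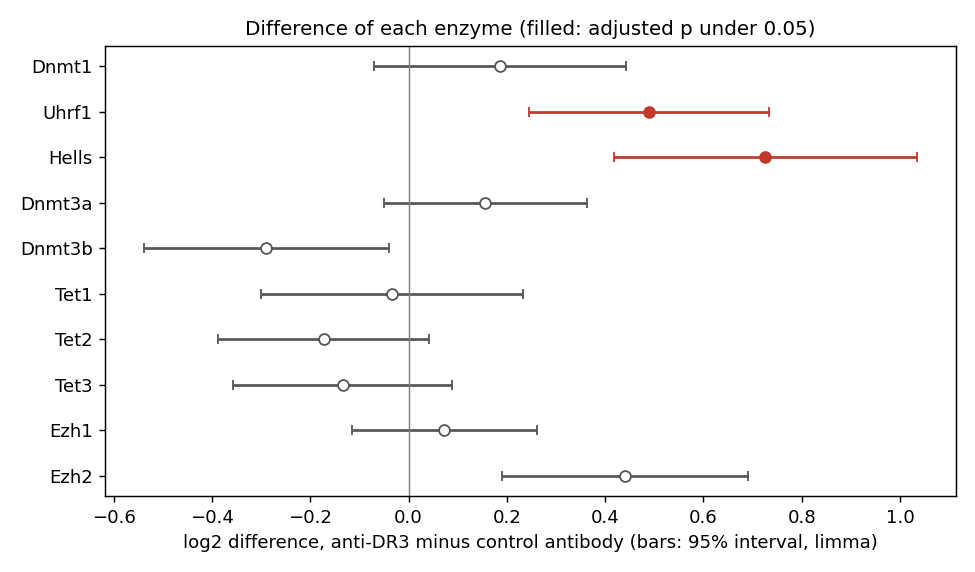
Log2 difference of each gene, anti-DR3 minus control antibody (x axis), with its 95% interval from limma; filled red points passed an adjusted p of 0.05. Hells and Uhrf1 passed, and the intervals of Ezh2 and Dnmt3b lie on one side of 0 although neither passed after adjustment.

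The methyltransferases that act on unmethylated DNA lay on opposite sides of the control arrays. Dnmt3a read 129 and 130.1 after anti-DR3, compared with 111 and 121 under control antibody. The anti-DR3 arrays were the higher by a margin smaller than the step between the control arrays, and the difference was 0.16 ± 0.084 (interval -0.050 to 0.36, adjusted p = 0.301, limma). Dnmt3b read 51.0 and 43.7 after anti-DR3, compared with 58.9 and 56.4 under control antibody, lower on both anti-DR3 arrays. Its difference was -0.29 ± 0.10 with an interval of -0.54 to -0.040, and did not pass (unadjusted p = 0.0295, adjusted p = 0.146, limma). Dnmt3b is also a dim probe set: on anti-DR3 replicate 2 it lay only 0.11 on the log2 scale above the array's median.

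None of the Tet dioxygenases passed the test, in either direction. Tet2 read 275 and 270.3 after anti-DR3, compared with 323 and 292 under control antibody, and Tet3 read 332 and 320.1 against 378 and 338. Both were lower on both anti-DR3 arrays, by -0.17 ± 0.087 for Tet2 (interval -0.39 to 0.042, adjusted p = 0.276, limma) and by -0.13 ± 0.091 for Tet3 (interval -0.36 to 0.089, adjusted p = 0.406, limma). For each of them the step between the control arrays, 0.15 and 0.16, was about the size of the difference. Tet1 was the only one of the 10 whose groups overlapped: it read 71.3 and 64.5 after anti-DR3, compared with 75.0 and 64.2 under control antibody. Its difference of -0.034 ± 0.11 (adjusted p = 0.884, limma) turned positive without anti-DR3 replicate 2 (0.039) and without control antibody replicate 1 (0.079).

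Of the alternative PRC2 catalytic subunits, Ezh2 read 379 and 358 after anti-DR3, compared with 252 and 293 under control antibody. Both anti-DR3 arrays were above both control arrays, and the gap between the groups exceeded the step within either. The difference was 0.44 ± 0.10 with an interval of 0.19 to 0.69 (unadjusted p = 0.00509, adjusted p = 0.0640, limma). Ezh2 passed under 4 of 14 alternatives in limma, with an adjusted p of 0.0170 under a trended robust prior, 0.0366 when more dim genes were left out, 0.0404 with a pseudocount of 16, and at a threshold of 0.10. Under the other 10 it did not, among them no filter (0.187), centring (0.0996), quantile normalization (0.0893) and each array left out (0.0665 to 0.231). Ezh1, which is known to predominate in cells that do not divide, read 513 and 516 after anti-DR3, compared with 495 and 484 under control antibody, with a difference of 0.072 ± 0.077 (interval -0.12 to 0.26, adjusted p = 0.604, limma). The arrays of each group lay very close together for Ezh1, within 0.031 on the log2 scale.

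In all, the groups did not overlap for 9 of the 10 genes, 6 higher and 3 lower after anti-DR3, where 56.1% of all genes tested did not overlap (31.6% higher and 24.6% lower). Leaving out 1 array moved several of the differences that did not pass by over 1.5 times. Without control antibody replicate 1 they were 0.082 for Dnmt1, 0.096 for Dnmt3a, -0.10 for Tet2 and -0.054 for Tet3, and Ezh2 over Ezh1, described next, was 0.24. Without control antibody replicate 2 Dnmt1 was at 0.29, Tet1 at -0.15 and Tet3 at -0.21. Without anti-DR3 replicate 1 Dnmt1 was at 0.12 and Tet1 at -0.11, and without anti-DR3 replicate 2 Dnmt3b was at -0.18. In bulk arrays a change in the share of cells that express a gene and a change in RNA per cell cannot be told apart, and this holds for every value here.

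Whether related enzymes differed by unequal amounts was read from the ratio of their probe sets on each array, relative to the control mean of that ratio. Ezh2 over Ezh1 was 0.42 and 0.32 on the anti-DR3 arrays and -0.12 and 0.12 on the control arrays, a difference of 0.37 on the log2 scale. Dnmt3a over Dnmt3b was 0.33 and 0.57 against -0.091 and 0.091, a difference of 0.45, and Dnmt1 over Dnmt3b differed by 0.475. The anti-DR3 arrays stood above the control arrays for all 3 of these ratios. Dnmt1 over Dnmt3a differed by 0.029 and its groups overlapped, and Tet2 over Tet3 by -0.039, which means that within each of those pairs the measured differences were nearly equal. With 2 arrays against 2, the exact two-sided permutation test cannot go below p = 0.333, which is what 4 of the 5 pairs gave (0.416 adjusted over the 5), while Dnmt1 over Dnmt3a gave p = 1.

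**Figure D3:**
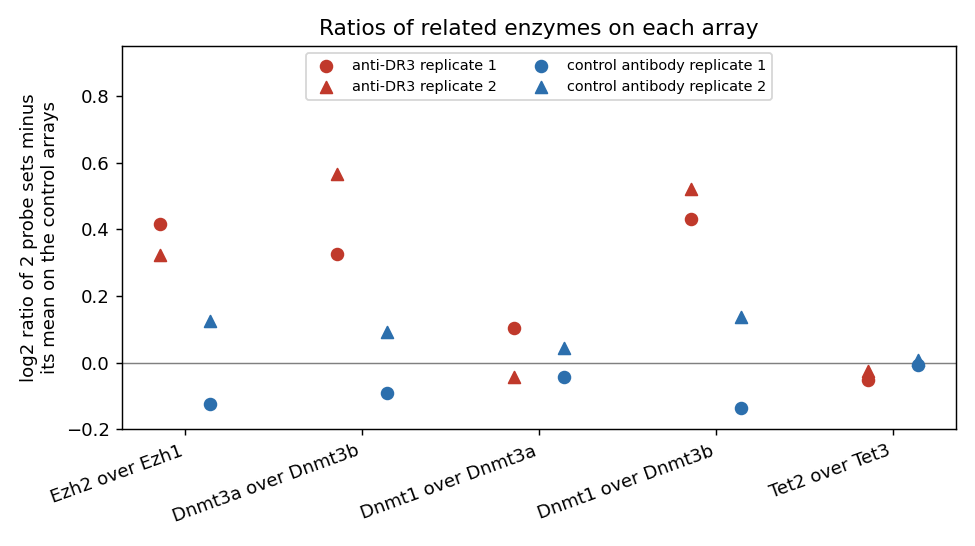
Log2 ratio of the probe sets of 2 related genes on each array (y axis), relative to its mean on the control antibody arrays, for 5 pairs. Red marks are anti-DR3 arrays and blue marks control antibody arrays; Ezh2 over Ezh1, Dnmt3a over Dnmt3b and Dnmt1 over Dnmt3b are higher on both anti-DR3 arrays, and Dnmt1 over Dnmt3a overlaps.

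Partners of these enzymes and related genes, such as those that remove Polycomb marks and other histone lysine methyltransferases, were read from 7 lists of 99 genes. Of the 99, 87 had a probe set with a single symbol and 83 were bright enough to be tested. In limma 0 of the 83 passed, where 5.96% of all genes tested did, and 23 lay under an unadjusted p of 0.05, 11 higher and 12 lower, a share close to the 26.1% of all genes tested. Their median log2 difference was 0.013. The smallest adjusted p was 0.0517, and 13 lay under an adjusted p of 0.10, 7 higher and 6 lower, where 13.9% of all genes tested did.

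Of 10 tested core and accessory subunits 0 passed in limma (3 under an unadjusted p of 0.05), with a median of 0.0028 that turned to -0.014 without anti-DR3 replicate 1 and to -0.058 with centred arrays. The core scaffold genes Eed and Suz12, without which Ezh2 has no activity, differed by 0.022 ± 0.081 and -0.046 ± 0.077; they were named after their values had been seen. Aebp2, an accessory subunit that helps the complex bind nucleosomes, had log2 intensities of 8.90 and 8.97 with anti-DR3 and of 8.51 and 8.60 with control antibody, a difference of 0.38 ± 0.084 (adjusted p = 0.0566, limma). Phf1, an accessory subunit of the alternative form of PRC2, read 8.07 and 8.08 against 8.48 and 8.35, a difference of -0.34 ± 0.085 (adjusted p = 0.0747, limma). These 2 subunits thus lay on opposite sides of the control arrays by similar amounts.

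Polycomb repressive complex 1 (PRC1), which binds the PRC2 mark and adds ubiquitin to histone H2A, had 0 of 18 tested subunits called in limma (5 under an unadjusted p of 0.05) and a median of -0.016. Rybp and Scmh1 had the smallest p, with differences of -0.32 ± 0.089 and -0.36 ± 0.10. Of 6 tested genes that remove Polycomb marks 0 passed in limma (1 under an unadjusted p of 0.05). That gene was Kdm6b, a demethylase of the PRC2 mark, at -0.30 ± 0.079 (adjusted p = 0.0809, limma), but a second, dimmer probe set of it gave 0.27. Asxl1, a cofactor of the H2A deubiquitinase, differed by 0.16 ± 0.081.

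Cofactors of DNA methylation and readers of methylated CpG had 0 of 13 called in limma (4 under an unadjusted p of 0.05) and a median of -0.022, which turned to 0.081 without anti-DR3 replicate 1. Mbd1, a methyl-CpG binding protein, differed by 0.28 ± 0.081 and Cdca7l by 0.26 ± 0.079. Cdca7, the partner that brings Hells to chromatin, had log2 intensities of 5.99 and 6.21 with anti-DR3 and of 5.82 and 5.75 with control antibody, a difference of 0.32 ± 0.10 (adjusted p = 0.120, limma). It was named after its values had been seen; as for Hells, replicate 2 was the higher of the anti-DR3 arrays. Genes listed for the steps after Tet oxidation had 0 of 13 called (5 under an unadjusted p of 0.05) with a median of 0.18. Idh1 and Idh2, which serve the supply of the Tet cofactor and not a later step, are in that list and among those 5. Idh1, which makes the Tet cofactor alpha-ketoglutarate, differed by 0.46 ± 0.097 (adjusted p = 0.0520, limma) and the DNA glycosylase gene Neil1 by 0.45 ± 0.11 (adjusted p = 0.0661, limma).

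The S-adenosylmethionine cycle, which supplies the methyl groups, had 0 of 7 called in limma, 0 also under an unadjusted p of 0.05, and a median of -0.18. That median was -0.050 without anti-DR3 replicate 2, -0.075 or -0.0996 when control antibody replicate 1 or 2 was dropped, and -0.044 when more dim genes were left out. Ahcy, which clears the by-product that inhibits methyltransferases, differed by 0.25 ± 0.11, with -0.11 at a dimmer probe set, and Gnmt by -0.24 ± 0.0996. Without anti-DR3 replicate 1 they were at 0.13 and -0.14, and the mean of both Ahcy probe sets gave 0.071. Other histone lysine methyltransferases had 0 of 16 called (5 under an unadjusted p of 0.05) and a median of -0.070. Nsd2, a histone H3 methyltransferase found over transcribed genes, lay closest to the threshold of all 83 genes, at 0.63 ± 0.13 (adjusted p = 0.0517, limma). Kmt2d, a histone H3 methyltransferase of enhancers, differed by -0.37 ± 0.080 (adjusted p = 0.0544, limma).

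**Figure D4:**
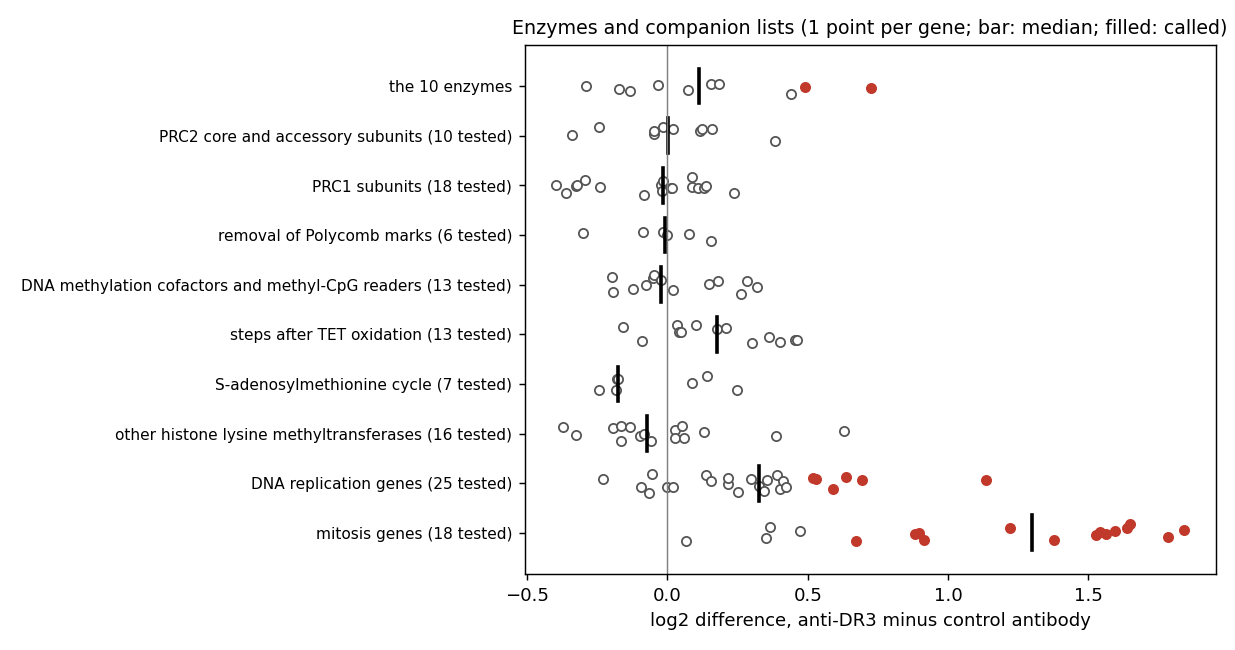
Log2 difference, anti-DR3 minus control antibody (x axis), of each tested gene in the set of 10 and in the companion lists; black bars are medians and filled red points passed an adjusted p of 0.05 in limma. None of the points in the 7 pathway lists is filled, while 6 of 25 DNA replication genes and 14 of 18 mitosis genes are, 4 of those 14 being bright enough to be tested on the anti-DR3 arrays only.

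Genes of cell division moved beside Hells and Uhrf1. In limma 4.49% of all genes tested rose and 1.47% fell. Among DNA replication genes 6 of 25 tested rose and 0 fell (median difference 0.33). Among mitosis genes 14 of 18 tested rose and 0 fell (median difference 1.30). Of those 14, Ccna2, Kif15, Nuf2 and Nusap1 lay below the array median on both control arrays and passed the filter on dim genes only through the anti-DR3 arrays, where they are high. With no such filter the median over all 21 mitosis genes with a probe set was 1.02 and 8 were called, where limma called 14 over all genes. Mcm6 of the replicative helicase rose by 0.64 ± 0.076 and Tk1, the thymidine kinase, by 0.69 ± 0.094, while Cdc45, which activates that helicase, rose by 0.59 ± 0.080. Chaf1b, a subunit of the factor that lays nucleosomes behind the fork, rose by 0.52 ± 0.081. Mki67, a marker of cycling cells, rose by 1.78 ± 0.099, and the cyclin gene Ccnb2 by 1.54. Ccna2 and Nusap1 rose by 1.84 and 1.38, against control values that were dim. The part of cell division in the values of Hells, Uhrf1 and Ezh2 was not tested.

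Hells, Uhrf1, Ezh2 and Dnmt1 were set against the median replication gene on the same array. Hells stood 0.24 and 0.56 above that median on the anti-DR3 arrays and -0.055 and 0.055 from it on the control arrays, and only 1 of the 25 replication genes had a higher difference. Uhrf1 stood 0.27 and 0.062 above it after anti-DR3, with -0.039 and 0.039 on the control arrays, and 6 of 25 replication genes had a higher difference. Ezh2 likewise had 6 of 25 above it, but its groups overlapped on this scale. Dnmt1 lay below the median, by -0.068 and -0.21, also with overlap, and 17 of 25 replication genes had a higher difference. With 1 array left out, the group differences on this scale ran from 0.24 to 0.56 for Hells, from 0.062 (without anti-DR3 replicate 1) to 0.27 for Uhrf1 and from 0.037 to 0.29 for Ezh2, and with a pseudocount of 16 the groups of Uhrf1 overlapped (0.10). Against the median of the 18 tested mitosis genes all 10 were lower, from -0.57 for Hells to -1.59 for Dnmt3b. That median includes the 4 mitosis genes that passed the filter on dim genes only through the anti-DR3 arrays. All 4 lie above it, so these gaps are wider with them than without. The exact two-sided permutation test over arrays gave p = 0.333, the smallest it can give, for Hells and Uhrf1 and p = 0.667 for Ezh2 and Dnmt1 against the replication genes.

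For each called gene the 3 tested genes with the most similar profile were found by the root mean square difference between array deviations from the gene's own mean, over 4 arrays. For Uhrf1 these were Tmem256 (0.025 on the log2 scale), the kinesin gene Kif18b (0.028) and Rrm1, the large subunit of ribonucleotide reductase (0.031). Hells was nearest to Slc22a15 (0.029), Mid2 (0.030) and the interleukin 9 receptor gene Il9r (0.040). With 4 points, many profiles can come close, and no test was made.

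The sort was checked against markers. Foxp3 had log2 intensities of 11.93 and 11.90 with anti-DR3 and of 11.89 and 11.81 with control antibody. All 8 Treg markers were bright enough to be tested, of which Ikzf2 rose and Gpr83, Il2ra and Lrrc32 fell. Of 6 B cell markers with a probe set, Cd79a, Ms4a1, Pax5 and Fcer2a were too dim to be tested and Cd79b did not pass. Ighm rose by 0.63 ± 0.088, with 1.18 at its second brightest probe set and -0.36 to 0.098 at dimmer ones. The summed intensity of the list, most of it from Ighm, was 4186 to 4421 after anti-DR3 and 2727 to 2955 after control antibody. Of 6 monocyte and macrophage markers Csf1r rose and 3 were too dim. Their sums of 313.5 to 344.7 against 276.9 to 314.1 overlapped. Of the 2 CD8 T cell markers Cd8b1 rose and Cd8a was too dim, with sums of 224 to 240 against 168 to 173. Of 6 markers of conventional CD4 T cells Igfbp4 and Pde3b fell and Il2 was too dim, with sums of 7547 to 7667 against 7232 to 7242. Those sums rest mostly on Cd3e and Cd4, which do not set conventional cells apart from the sorted CD4 Treg. Cd4 differed by 0.30, Cd3e by 0.024 and Cd40lg by -0.22, and none of them passed. Plasma cell, dendritic cell and natural killer cell markers had 0 calls in limma (0 also under an unadjusted p of 0.05), with 3 of 4, 4 of 5 and 2 of 3 too dim. The part of these cell types in the values of the 10 genes was not tested.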

How the data were processed

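The deposited values are linear intensities, 1 per probe set, made by the authors with RMA (robust multi-array average), per the submitters' processing notes; for the build and the software, the sources used here give nothing. Their range showed a linear scale. RMA adjusts arrays to a shared distribution, which can hide a change common to all genes. Log2 was taken of 41345 probe sets, of which 23521 had 1 gene symbol in the platform annotation, 1814 several and 16010 none listed; Entrez identifiers matched 23328 to RefSeq (GRCm38.p6), whose gene table was used for names only, and updated 0 symbols. A gene was represented by its brightest probe set and tested if above the array median on at least 2 arrays.

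The anti-DR3 arrays were set against the control arrays in limma 3.58.1, run under R 4.3.3 (lmFit, eBayes, two-sided), over all 4 arrays, with 2 residual and 3.94 prior degrees of freedom. Intervals are unadjusted 95% intervals of that fit. The precision is limited by the number of arrays. The code was tested on simulated data.

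The 10 genes, the lists, the motifs and the alternatives were chosen with earlier results of these data known. Up to 4 called genes of a list were named by moderated statistic, or, where none passed, the 2 with the smallest p. Erythroid markers had no probe set with a single symbol and are not analysed here. The search for similar profiles skipped predicted genes, small RNAs and antigen receptor segments. Promoter sequences are RefSeq's.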

Additional observations from a re-analysis of the deposited data

How the results depend on the processing

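Of the values of the 10 genes under the alternatives, 118 stayed on their side of 0 and of the threshold, 14 lost the call (Hells and Uhrf1), 4 gained one (Ezh2) and 2 turned direction (Tet1); of those of the other named genes 247, 23, 33 and 0 did. With each array left out, a group's single array being given the spread of the other group, limma called 0 of the 10, 0 higher (3 or 4 under an unadjusted p of 0.05), 0 to 312 genes in all, 0 to 245 higher and 0 to 67 lower; the fit with 0 had 1967 under an unadjusted p of 0.05. Tet1 then ran from -0.15 to 0.079, Dnmt1 over Dnmt3a from -0.045 to 0.10 and Dnmt1 against the replication genes from -0.21 to 0.025. With no filter on dim genes limma called 0 of the 10, 0 higher (4 under an unadjusted p of 0.05), and 14 genes, 14 higher and 0 lower, with 3573 under an unadjusted p of 0.05. A filter at the 60th percentile on all 4 arrays, under which Uhrf1 and Dnmt3b were not tested, gave 1157 genes, 860 higher and 297 lower. That was 13.3% of the genes tested there, and 9 of the pathway genes were among them. Centring called 1 of the 10, higher (Hells), 348 genes higher and 243 lower against 544 and 178, and 1 pathway gene. Quantile normalization, array weights and the replicate block also called 1, higher (Hells), with 2, 0 and 1 pathway genes. Over all genes tested they called 5.05%, 5.84% and 4.65%. A pseudocount of 16 gave 6 pathway genes, with 1061 genes in all, 807 higher and 254 lower. A trended robust prior gave 11, with 1444 genes, 1082 higher and 362 lower. An adjusted p under 0.10 gave 13, with 1689, 1171 and 518. In that order, the calls over all genes were 8.76%, 11.9% and 13.9% of those tested. Except where the alternative itself tested fewer genes or arrays, the cause was not tested. With mitosis in place of replication genes, Uhrf1, Hells and Ezh2 lay at -0.81, -0.57 and -0.86. The mitosis median used there is raised by the 4 genes that passed the filter only through the anti-DR3 arrays. Nothing in the labels ties equal replicate numbers together; across genes, the replicate difference of one group correlated with that of the other at 0.051, and 2 pairs cannot show pairing. With the replicate block Uhrf1 had an adjusted p of 0.0511 and limma called 563 genes, 430 higher and 133 lower. The mean of all probe sets changed no call of the 10. The second brightest probe set in place of the brightest was not run, since no gene of the 10 has one with a single symbol.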
